A study of Bos taurus with 34 samples.

Results

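A set of 6 scarce circulating miRNAs of cattle is described here: bta-miR-345-5p, bta-miR-188, bta-miR-505, bta-miR-138, bta-miR-339a and bta-miR-628. They are 6 of the 800 bovine miRNA names in the count files, and they were chosen by name from earlier results of these same libraries, in which their levels were higher in cows with subclinical endometritis (SCE) than in healthy cows. The status difference is therefore what selected them, and its values are given below as a description. The calls made in that contrast are printed as background and support nothing about the 6. Small RNA was sequenced from the cell-free fraction of blood of 17 dairy cows, of which 11 had SCE, a uterine inflammation found by cytology with no visible discharge or illness, and 6 were classed as healthy. The groups were SCE cows at day 45 (11 libraries), healthy cows at day 45 (6), SCE cows at day 25 (11) and healthy cows at day 25 (5). All were sampled after calving and the labels give neither a treatment nor an age. The labels name days 25 and 45 and serum, while the design text names 21 and 44 days postpartum and plasma. The file of healthy cow 3 at day 25 held the same values as its day-45 file and was left out, so 33 of 34 libraries were used.

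A miRNA is a short RNA that guides a silencing complex to partly complementary messenger RNAs and lowers their output. It is cut from a hairpin, and the 2 sides of the hairpin, named 5p and 3p, can each give a mature miRNA. Blood cells and tissues release miRNAs into the circulation, where they are carried in vesicles or bound to protein, so a level in cell-free blood names no cell of origin. miR-486 is abundant in red blood cells, and a library rich in it leaves fewer reads for all other names. Levels are therefore given as CPM, the count scaled to a fixed library size, and also as CPM with miR-486 left out of the library total.

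The miRNAs described next do not share a locus. In the RefSeq annotation, bta-miR-188 is encoded within the chloride transporter gene CLCN5, less than 10 kb from the hairpins of miR-532 and miR-502a. The bta-miR-628 hairpin lies within CCPG1, a gene of endoplasmic reticulum turnover. The bta-miR-339a hairpin lies within C25H7orf50, whereas that of its near namesake bta-miR-339b lies elsewhere, within MYO1F, a myosin gene of immune cells. The bta-miR-345 hairpin lies less than 10 kb from SLC25A29, a mitochondrial carrier gene. bta-miR-138, known in rat neurons as a regulator of dendritic spine size, comes from 2 hairpins, MIR138-1 within a long noncoding RNA gene and MIR138-2 less than 10 kb from SLC12A3.

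Total counts ranged from 678389 to 28872153 per library. The day-45 medians were 9354855 for SCE cows and 16939642 for healthy cows. The day-25 medians were 8454315 for SCE cows and 15570759 for healthy cows. The miR-486 share of a library had a median of 36.5% in SCE cows at day 45 and 48.0% in healthy cows at day 45. It was 10.8% in SCE cows at day 25 and 45.3% in healthy cows at day 25. SCE cow 10 had the fewest counts, 678389 at day 45 and 1343401 at day 25, and the day-25 library of SCE cow 7 was 79.0% miR-486.

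All 6 were scarce as a share of the counts, though not by their rank among the names. By mean CPM over the 33 libraries bta-miR-339a ranked 91 of the 794 names with any count, at 295 CPM. bta-miR-138 ranked 145 at 53.9 CPM and bta-miR-505 ranked 147 at 49.9 CPM. bta-miR-345-5p ranked 179 at 23.7 CPM, bta-miR-188 ranked 221 at 9.41 CPM and bta-miR-628 ranked 226 at 8.28 CPM. bta-miR-339a was the highest of the 6 in 33 of 33 libraries, and bta-miR-188 and bta-miR-628 were the lowest pair in 25. The 6 together made up between 0.0029% and 0.154% of a library. At day 45 their summed level had a median of 345 CPM in SCE cows and 129 CPM in healthy cows. The day-25 medians were 632 CPM in SCE cows and 83.8 CPM in healthy cows. With miR-486 left out of the total, the sums had medians of 509 CPM in SCE and 229 CPM in healthy cows at day 45, and of 868 CPM in SCE and 316 CPM in healthy cows at day 25.

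The 6 miRNAs had 5 counts of 0 over all libraries, 4 of them in healthy cows. The day-45 library of healthy cow 2, with 14536010 counts, had none of bta-miR-345-5p, bta-miR-188 or bta-miR-628, which allows up to 0.206 CPM of each. bta-miR-188 also had no count in SCE cow 7 at day 25, which allows up to 0.485 CPM, and in healthy cow 4 at day 25, which allows up to 0.386 CPM. These limits cover counting error only, and reads amplified by PCR are not independent molecules.

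**Figure D1:**
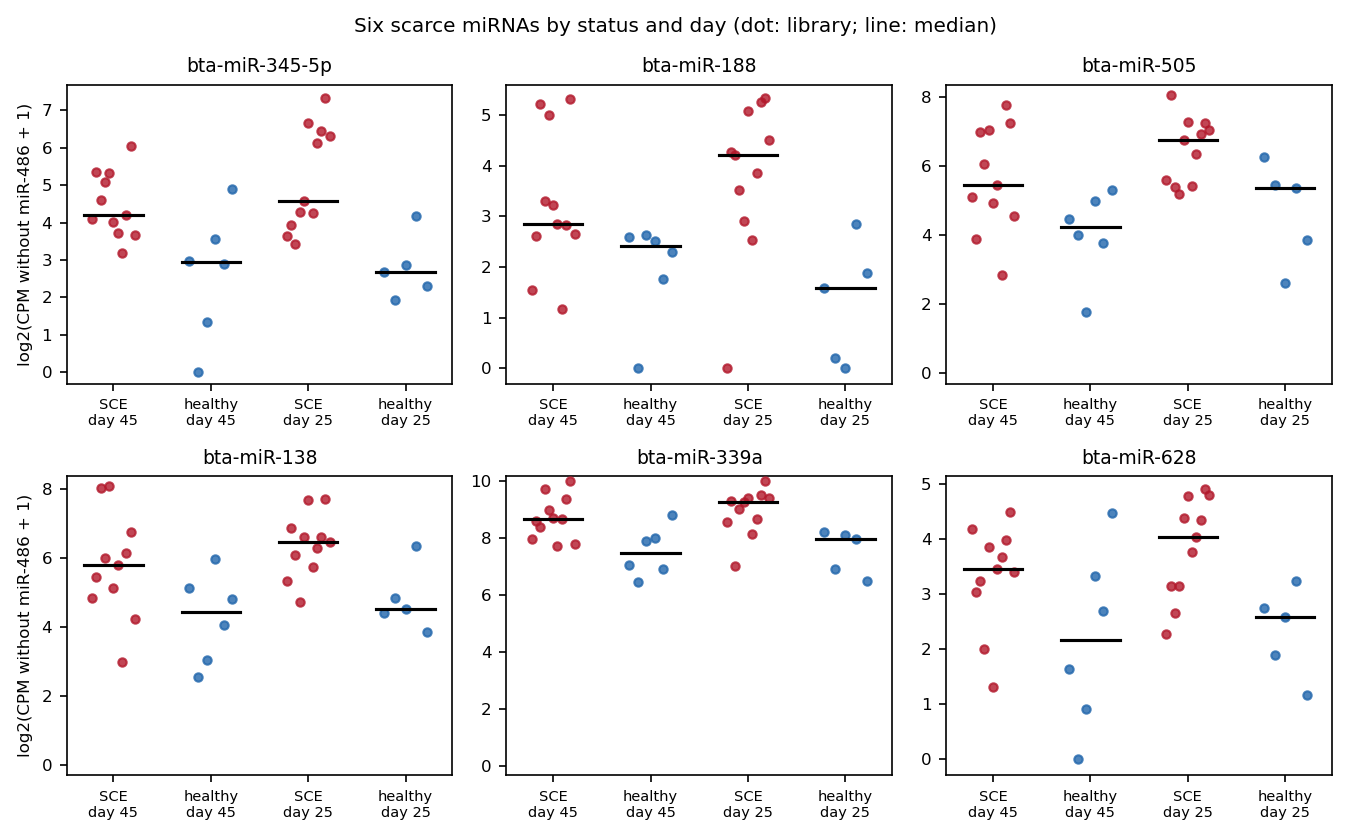
Level of each of the 6 miRNAs in every library, as log2(CPM without miR-486 + 1), by status and day. Each dot is a library and each line a group median. For all 6 the SCE median lies above the healthy median at both days, and the groups overlap in every panel.

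bta-miR-345-5p lay above the healthy median in every SCE library at both days. At day 45 it ran from 6.38 to 58.4 CPM in SCE cows, with a median of 10.3 CPM, and from 0 to 24.8 CPM in healthy cows, with a median of 3.53 CPM. In the day-25 libraries it ran from 2.42 to 152.5 CPM in SCE cows, with a median of 20.4 CPM, against 1.02, 1.22, 2.15, 4.76 and 9.66 CPM in the 5 healthy cows. The groups overlapped at both days. At day 25 SCE cows 12, 14, 15, 16 and 17 had between 66.6 and 152.5 CPM, while the other 6 SCE cows had at most 20.4 CPM. On the scale without miR-486 the medians were 17.4 CPM in SCE and 6.65 CPM in healthy cows at day 45, and 22.8 CPM in SCE and 5.40 CPM in healthy cows at day 25.

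bta-miR-188, which in mouse is known to steer bone marrow stromal cells between bone and fat, was among the scarcest. At day 45 it ran from 0.987 to 34.8 CPM in SCE cows, with a median of 4.02 CPM, and from 0 to 3.33 CPM in healthy cows, with a median of 2.05 CPM. SCE cows 9, 11 and 16 had 34.8, 25.7 and 34.6 CPM at day 45, and the other 8 SCE cows had at most 4.42 CPM. It ran at day 25 from 0 to 37.8 CPM in SCE cows, with a median of 12.7 CPM, against 0, 0.0642, 0.376, 1.48 and 3.50 CPM in healthy cows. 9 of 11 SCE libraries lay above the highest healthy library at day 25 on either scale. Its medians without miR-486 in the total were 6.204 CPM in SCE and 4.32 CPM in healthy cows at day 45, and 17.6 CPM in SCE and 1.99 CPM in healthy cows at day 25.

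bta-miR-505 had counts in every library. At day 45 it ran from 4.86 to 133.9 CPM in SCE cows, with a median of 25.3 CPM, and from 1.49 to 33.2 CPM in healthy cows, with a median of 8.55 CPM. The day-25 values ran from 10.0 to 146.3 CPM in SCE cows, with a median of 94.99 CPM, against 3.86, 7.39, 14.5, 18.3 and 23.0 CPM in healthy cows. 4 of 11 SCE libraries lay above the highest healthy library at day 45 and 9 of 11 at day 25. Without miR-486 in the total it was 6 of 11 at day 45 and 7 of 11 at day 25. With miR-486 left out of the total the medians were 42.8 CPM in SCE and 18.1 CPM in healthy cows at day 45, and 106.5 CPM in SCE and 40.5 CPM in healthy cows at day 25.

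bta-miR-138 ran from 5.39 to 250.0 CPM in SCE cows at day 45, with a median of 31.0 CPM, and from 1.31 to 25.3 CPM in healthy cows at day 45, with a median of 12.2 CPM. SCE cows 9 and 11 had 250.0 and 223.2 CPM at day 45, and the other 9 SCE cows had at most 94.4 CPM. In the day-25 libraries it ran from 8.24 to 196.9 CPM in SCE cows, with a median of 73.7 CPM, against 3.77, 7.26, 11.8, 16.2 and 45.0 CPM in healthy cows. 8 of 11 SCE libraries lay above the highest healthy library at day 25, and 6 of 11 did without miR-486 in the total. At day 45 it was 7 of 11 by CPM and 5 of 11 without miR-486 in the total. On the scale without miR-486 the medians were 54.6 CPM in SCE and 21.1 CPM in healthy cows at day 45, and 86.4 CPM in SCE and 21.6 CPM in healthy cows at day 25. The other brain marker in the files, bta-miR-124a, had group medians between 0 and 0.118 CPM.

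bta-miR-339a ran from 124.1 to 910.7 CPM in SCE cows at day 45, with a median of 314.0 CPM, and from 23.8 to 380.4 CPM in healthy cows at day 45, with a median of 91.4 CPM. It ran at day 25 from 79.9 to 981.7 CPM in SCE cows, with a median of 386.1 CPM, against 48.8, 51.3, 56.5, 141.5 and 208.7 CPM in healthy cows. 3 of 11 SCE libraries lay above the highest healthy library at day 45 and 8 of 11 at day 25. Without miR-486 in the total it was 4 of 11 at day 45 and 9 of 11 at day 25. Its medians without miR-486 in the total were 407.3 CPM in SCE and 185.3 CPM in healthy cows at day 45, and 616.4 CPM in SCE and 248.9 CPM in healthy cows at day 25.

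bta-miR-628 ran from 0.709 to 19.2 CPM in SCE cows at day 45, with a median of 7.52 CPM, and from 0 to 18.1 CPM in healthy cows at day 45, with a median of 2.22 CPM. At day 45, 1 SCE library lay above the highest healthy library, that of healthy cow 6, and 9 of 11 lay above the healthy median. The day-25 values ran from 0.808 to 27.8 CPM in SCE cows, with a median of 14.7 CPM, against 0.672, 1.08, 1.16, 3.73 and 4.79 CPM in healthy cows. 7 of 11 SCE libraries lay above the highest healthy library at day 25 on either scale. With miR-486 left out of the total the medians were 10.0 CPM in SCE and 3.79 CPM in healthy cows at day 45, and 15.3 CPM in SCE and 4.96 CPM in healthy cows at day 25.

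The same cows stood at the ends of several ranges. SCE cow 16 had the highest CPM of all cows for 6 of 6 miRNAs at day 25 and for 4 of 6 at day 45. SCE cow 7 had the lowest CPM among SCE cows for 6 of 6 at day 25, but for 2 of 6 once miR-486 was left out of the total. At day 45 SCE cow 14 was the lowest SCE cow for 4 of 6 on either scale. Among healthy cows at day 45, cow 6 had the highest CPM of bta-miR-345-5p, bta-miR-188, bta-miR-505, bta-miR-339a and bta-miR-628.

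Fitted over all tested miRNAs with edgeR's quasi-likelihood test and TMM normalization, the log2 fold change of SCE over healthy cows was positive for 6 of 6 at both days. This is the direction that chose them. At day 45 it was 1.59 (SE 0.72) for bta-miR-188, 1.58 (SE 0.61) for bta-miR-505, 1.47 (SE 0.62) for bta-miR-138, 1.19 (SE 0.64) for bta-miR-345-5p, 0.86 (SE 0.40) for bta-miR-339a and 0.57 (SE 0.69) for bta-miR-628. At day 25 it was 2.80 (SE 0.96) for bta-miR-188, 2.68 (SE 0.77) for bta-miR-345-5p, 1.57 (SE 0.56) for bta-miR-628, 1.42 (SE 0.54) for bta-miR-505, 1.35 (SE 0.52) for bta-miR-138 and 1.10 (SE 0.44) for bta-miR-339a. The median over the 6 was 1.33 at day 45, beside 0.11 over all 382 miRNAs tested, and 1.495 at day 25, beside -0.053 over all 372 tested. On counts summed per cow, the 6 ran from 0.94 (SE 0.36) for bta-miR-339a to 2.09 (SE 0.65) for bta-miR-188.

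At an adjusted p of 0.05 edgeR called 0% of 382 miRNAs at day 45, 0.269% of 372 at day 25 and 0.239% of 418 on summed counts, and none of the 6 was among them. Its unadjusted p was under 0.05 for 39 of the 382 at day 45, 75 of the 372 at day 25 and 69 of the 418 on summed counts. DESeq2 called 0.134% of the 748 miRNAs with an adjusted p at day 45, 2.68% of 523 at day 25 and 5.24% of 286 on summed counts. Of the 6 it called 0 at day 45, 2 at day 25 and 4 on summed counts. Since this contrast chose the 6, nothing is read from these calls. For none of the 6 did all SCE libraries exceed all healthy ones, which was so for 0% of tested miRNAs at day 45 and 0.269% at day 25.

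In the direction that chose the 6, the fold changes were positive for 6 of 6 under each scaling. Using the library total alone moved the median log2 fold change of all tested miRNAs to 0.71 at day 45 and 0.88 at day 25, and that of the 6 to 1.91 at day 45 and 2.60 at day 25. Using the total without miR-486 gave medians over the 6 of 1.64 at day 45 and 1.69 at day 25, beside 0.39 and 0.24 over all tested. Without healthy cow 6, the day-45 fold change of bta-miR-345-5p was 1.93 and that of bta-miR-628 was 1.37.

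A property of the files went with status in part. The first header cell was empty in the files of all healthy cows and of SCE cows 7 and 8, and held a space in those of SCE cows 9 to 17. The sources used here do not say what the 2 forms stand for, and the part of this property in the status difference beyond the values below was not tested. With SCE cows 7 and 8 alone against the healthy cows, a comparison added after the values were seen, the day-45 log2 fold change was 1.34 for bta-miR-345-5p, 0.73 for bta-miR-628, 0.33 for bta-miR-138, 0.28 for bta-miR-339a, 0.064 for bta-miR-505 and -0.29 for bta-miR-188. At day 25 it was 1.83 for bta-miR-505, 1.78 for bta-miR-188, 0.99 for bta-miR-138, 0.84 for bta-miR-339a, 0.58 for bta-miR-345-5p and 0.038 for bta-miR-628. Only 2 SCE cows enter these values.

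The close relatives of the 6 had fold changes on both sides of 0. Of the other arm, the namesake and the neighbours of bta-miR-188, edgeR tested 6 at day 45 and 7 at day 25, and called none. Their lowest adjusted p was 0.651 at day 45 and 0.499 at day 25 (edgeR), and DESeq2 called none at either day. Their median log2 fold change was 0.16 at day 45 and -0.064 at day 25. bta-miR-345-3p, cut from the same hairpin as bta-miR-345-5p, had 0.13 (SE 0.46) at day 45 and -0.16 (SE 0.47) at day 25. bta-miR-339b had 0.19 (SE 0.41) at day 45 and -0.24 (SE 0.45) at day 25. bta-miR-532, a neighbour of bta-miR-188, had -0.21 (SE 0.35) at day 45 and -0.39 (SE 0.31) at day 25. Other names of that cluster lay as high as some of the 6. bta-miR-362-3p had 0.96 (SE 0.66) at day 45 and 0.29 (SE 0.68) at day 25, and bta-miR-500 had 1.06 (SE 0.86) at day 25. The difference between a member and its relative was not tested, since the members were selected on this contrast.

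**Figure D2:**
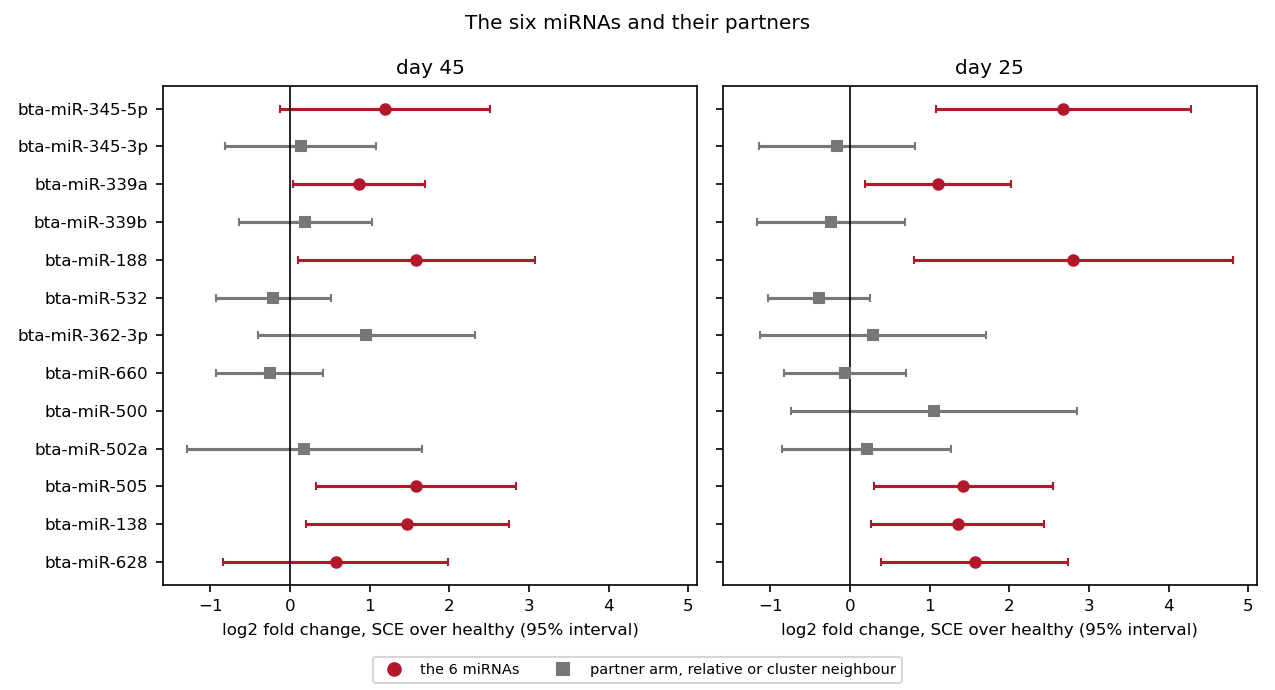
Log2 fold change of SCE over healthy cows with its 95% interval from edgeR, at day 45 (left) and day 25 (right). Red circles are the 6 miRNAs, and grey squares are the other arm of miR-345, bta-miR-339b and names of the cluster of bta-miR-188. The red circles lie at 0.57 or above, and the grey squares between -0.39 and 1.06. bta-miR-500 was tested at day 25 but not at day 45.

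Shares within a pair of names need no library total. They still carry the selection, since each member was chosen for being higher in SCE cows and its partner was not. The shares are therefore a description. bta-miR-345-5p made up a median of 9.33% of the counts of both arms in SCE cows at day 45 (range 2.50% to 25.7%) and 4.87% in healthy cows at day 45 (range 0% to 10.2%). At day 25 it made up a median of 9.61% in SCE cows (range 6.71% to 39.2%), against 1.56%, 1.87%, 2.56%, 6.11% and 11.8% in healthy cows. The 3p arm was thus the more abundant arm in every library, and the 5p share overlapped between statuses. 5 of 11 SCE libraries exceeded the highest healthy share at day 45, and 4 of 11 did at day 25.

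bta-miR-339a made up a median of 77.8% of the counts of bta-miR-339a and bta-miR-339b in SCE cows at day 45 and 62.2% in healthy cows at day 45. At day 25 the medians were 86.4% in SCE cows and 66.6% in healthy cows. 3 of 11 SCE libraries exceeded the highest healthy share at day 45, and 6 of 11 did at day 25. The sources used here do not say how reads matching both names were counted, so this split is uncertain. bta-miR-188 made up a median of 4.55% of the counts of bta-miR-188 and bta-miR-532 in SCE cows at day 45 and 2.35% in healthy cows at day 45. At day 25 the medians were 9.31% in SCE cows and 1.27% in healthy cows, and 10 of 11 SCE libraries exceeded the highest healthy share of 3.08%. At day 45, 6 of 11 exceeded the highest healthy share of 3.21%.

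**Figure D3:**
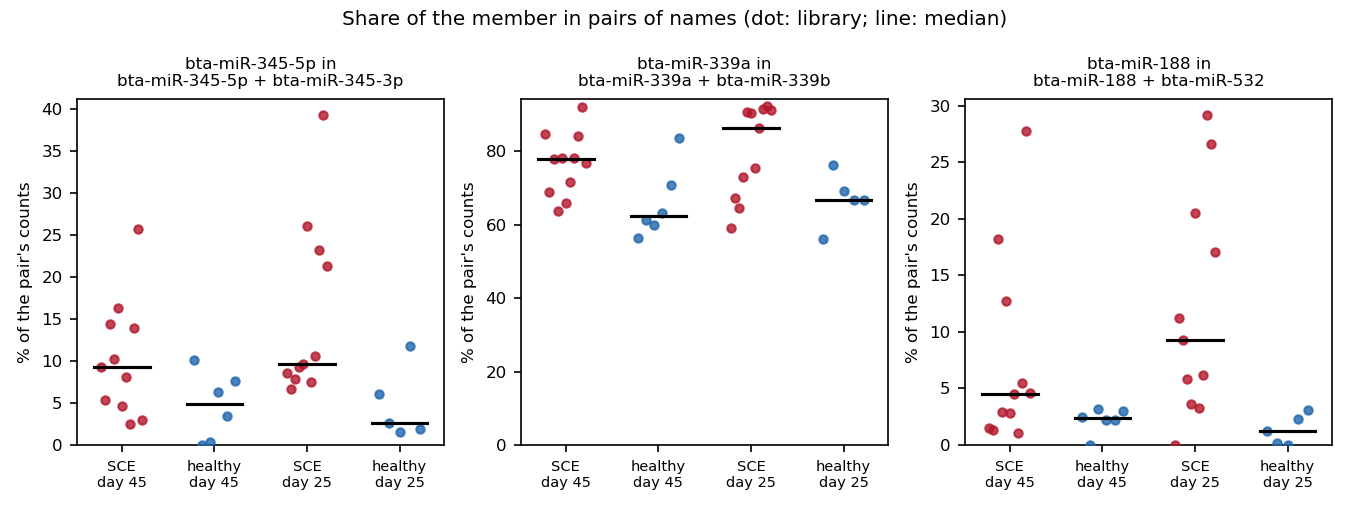
Share of bta-miR-345-5p, bta-miR-339a and bta-miR-188 in the summed counts of the member and a partner name, in percent, by status and day. Dots are libraries and lines are medians. At day 25 the SCE medians are 9.61%, 86.4% and 9.31%, and the healthy medians 2.56%, 66.6% and 1.27%.

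The day contrast was not itself used to choose the 6, but it rests on the same libraries. A choice by high SCE values can favour miRNAs that were high at a given day. The day values and their difference between statuses are therefore not free of the selection, and they are given as a description. In SCE cows, day 45 against day 25, the log2 fold change was negative for 6 of 6, with a median of -0.58 beside -0.11 over the 346 miRNAs tested. bta-miR-345-5p was at -1.22 (SE 0.50), with an unadjusted p of 0.0208 and an adjusted p of 0.705 in edgeR. With the cow as a block it was at -0.75 and bta-miR-505 at -0.83, neither of them called. The other 5 ran from -0.64 (SE 0.45) for bta-miR-505 to -0.25 (SE 0.33) for bta-miR-339a. edgeR called none of the 6 and no other miRNA (0% of 346). Its unadjusted p was under 0.05 for 14 of them, and DESeq2 called none.

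In healthy cows, day 45 against day 25, the 6 did not share a direction in the fit without the cow as a block. The log2 fold change was 0.88 (SE 1.04) for bta-miR-188, 0.49 (SE 0.91) for bta-miR-628, 0.38 (SE 0.87) for bta-miR-345-5p and 0.059 (SE 0.47) for bta-miR-339a. It was -0.30 (SE 0.59) for bta-miR-138 and -0.69 (SE 0.63) for bta-miR-505. edgeR called none (0% of 345 tested). Its unadjusted p was under 0.05 for 10 of those tested, and DESeq2 called none. With the cow as a block only 1 of the 6 was higher at day 45. The median over the 6 was then -0.13, beside 0.080 over all tested. In that fit bta-miR-345-5p was at -0.063, bta-miR-339a at -0.11 and bta-miR-628 at -0.15. Without healthy cow 6, in the fit without the block, they were at -0.45, -0.41 and -0.52. Their positive values thus depended on that cow and on leaving out the block.

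The day effect of SCE cows minus that of healthy cows was -1.58 (SE 0.95) for bta-miR-345-5p, -1.27 (SE 1.135) for bta-miR-188 and -1.09 (SE 0.89) for bta-miR-628 on the log2 scale. It was -0.30 (SE 0.55) for bta-miR-339a and 0.068 for both bta-miR-505 (SE 0.79) and bta-miR-138 (SE 0.81). The lowest unadjusted p among the 6 was 0.106 and the adjusted p was 0.988 in edgeR. No call was made (0% of 406 tested). An unadjusted p under 0.05 was found for 7 of those tested, and DESeq2 called none. With the cow as a block the value was -0.74 for bta-miR-345-5p, -0.43 for bta-miR-628 and -0.085 for bta-miR-339a. Without healthy cow 6 it was -0.84 for bta-miR-345-5p and -0.071 for bta-miR-628. The 95% interval for bta-miR-345-5p, without the block and with all cows, ran from -3.50 to 0.35, which leaves room for a large difference.

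Single cows went both ways between the days. On the scale without miR-486, all 6 miRNAs were lower at day 45 in SCE cows 12, 16 and 17, all 6 were higher in SCE cow 9, and the other 7 SCE cows were mixed. Among the 5 healthy cows with both days, all 6 were lower at day 45 in cows 2 and 5 and higher in cow 6. bta-miR-345-5p had 15.3 CPM at day 45 and 99.9 CPM at day 25 in SCE cow 12, and 8.17 CPM at day 45 and 69.4 CPM at day 25 in SCE cow 14. In SCE cow 9 bta-miR-138 had 260.2 CPM at day 45 and 67.0 CPM at day 25.

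**Figure D4:**
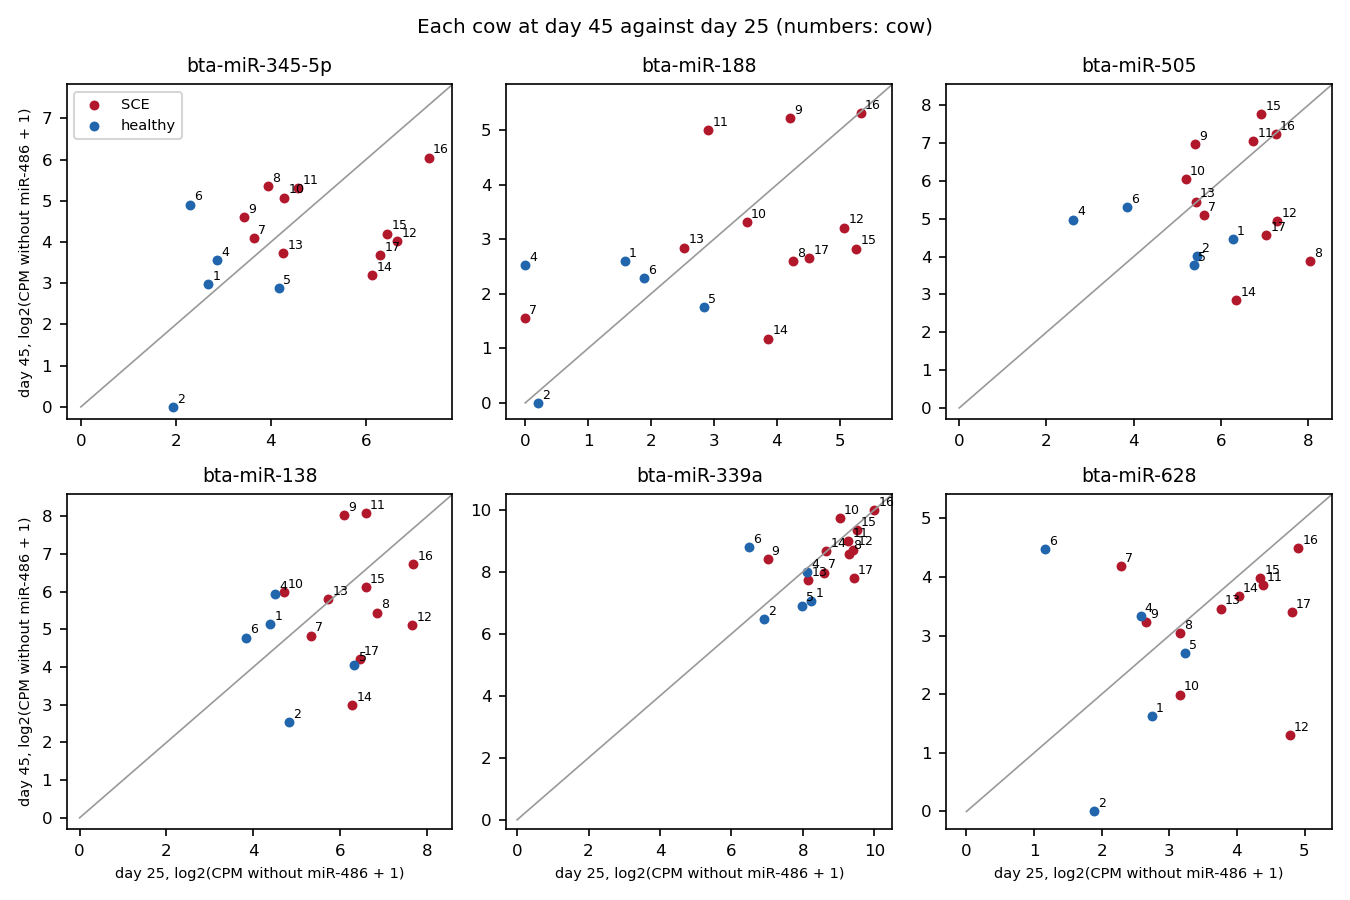
Each cow's level at day 45 (vertical axis) against its level at day 25 (horizontal axis), as log2(CPM without miR-486 + 1), for the 6 miRNAs. Red points are SCE cows, blue points are healthy cows, numbers name the cow and the grey line marks equal levels. SCE cows 12, 16 and 17 lie below the line in every panel and SCE cow 9 above it.

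Among SCE libraries, levels of the 6 were lower where the miR-486 share was higher. Over the 22 SCE libraries, which include each cow at both days, Spearman's rho between CPM and the miR-486 share ran from -0.83 for bta-miR-628 to -0.55 for bta-miR-505. A larger miR-486 share lowers the CPM of every other name by construction. Without miR-486 in the total, rho was -0.68 for bta-miR-628, -0.62 for bta-miR-188, -0.62 for bta-miR-345-5p and -0.55 for bta-miR-138, and it was -0.28 for bta-miR-505 and -0.19 for bta-miR-339a. Over the 11 healthy libraries rho without miR-486 in the total was -0.35 for bta-miR-345-5p, -0.28 for bta-miR-339a, -0.24 for bta-miR-628, -0.15 for bta-miR-188, -0.0091 for bta-miR-138 and 0.45 for bta-miR-505. These are descriptions with no test, and the part of miR-486 in the status difference was not tested.

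**Figure D5:**
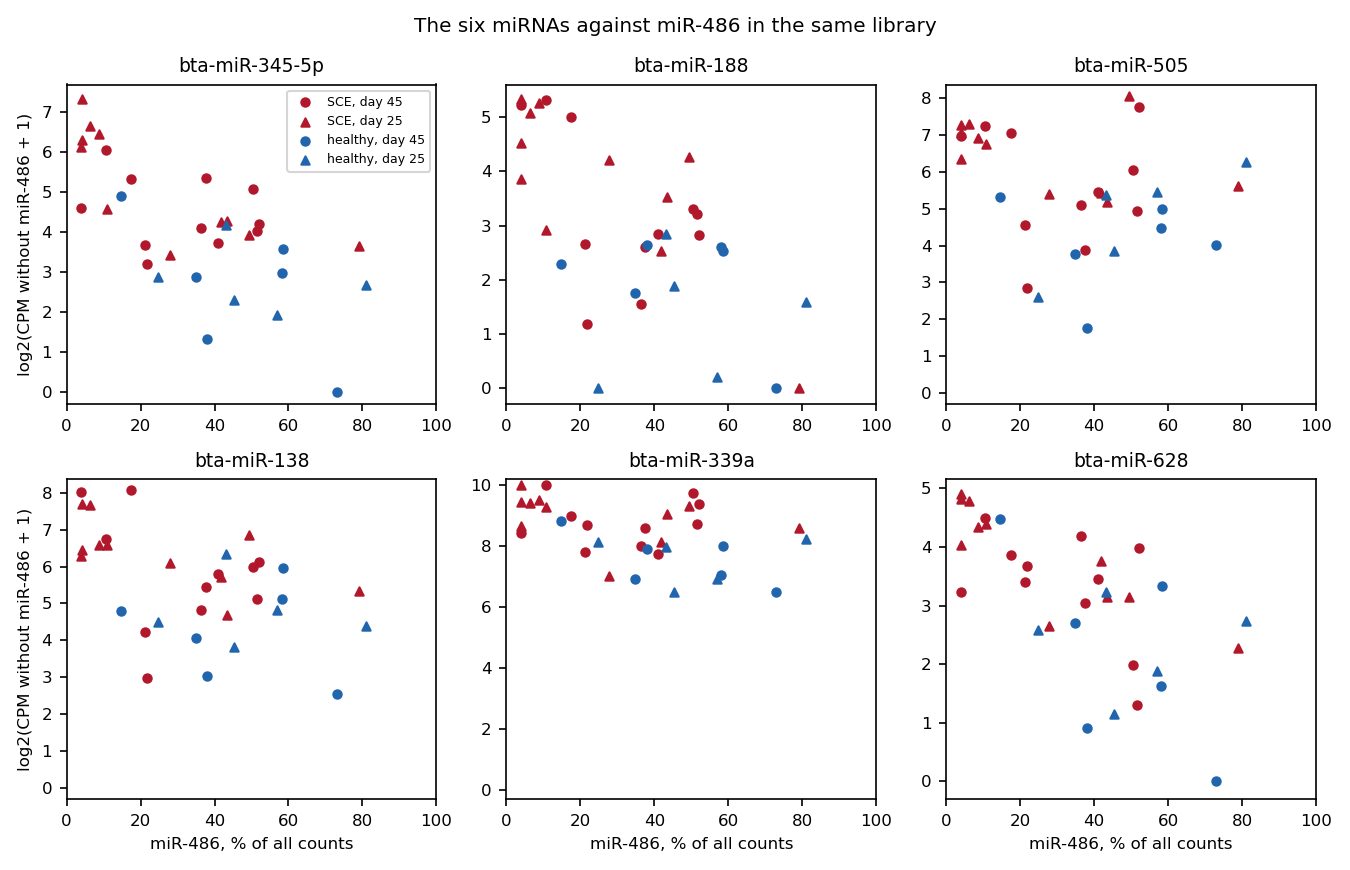
Level of each of the 6 miRNAs, as log2(CPM without miR-486 + 1), against the share of miR-486 in all counts of the library, in percent. Red points are SCE and blue points healthy libraries, with circles for day 45 and triangles for day 25. The highest levels of bta-miR-345-5p and bta-miR-188 lie at miR-486 shares below 20%.

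Markers of blood cells and liver were read in the same libraries. All 3 red blood cell markers (miR-486, miR-451 and miR-144) were detected, and without miR-486 the other pair summed to a median of 8570 CPM in SCE cows at day 45 (range 1021 to 33590) and 6331 CPM in healthy cows at day 45 (range 1434 to 27991), on the scale without miR-486. At day 25 it was 7520 CPM in SCE cows (range 2246 to 43051) and 9091 CPM in healthy cows (range 800 to 31758). Both myeloid markers (miR-223 and miR-142-5p) were detected, with a summed median of 41731 CPM in SCE cows at day 45 (range 19164 to 55108) and 32081 CPM in healthy cows at day 45 (range 14871 to 55594) on that scale. At day 25 it was 38370 CPM in SCE cows (range 23446 to 48752) and 21207 CPM in healthy cows (range 8229 to 65293). The 3 platelet markers (miR-223, miR-126-3p and miR-199a-3p), summed on that scale, had a median of 3063 CPM in SCE cows at day 45 (range 1907 to 6038) and 1890 CPM in healthy cows at day 45 (range 1316 to 3173). The day-25 medians were 2785 CPM in SCE cows (range 1687 to 5185) and 2526 CPM in healthy cows (range 705 to 3814). The 3 lymphocyte markers (miR-150, miR-342 and miR-181a) had a median of 14708 CPM in SCE cows at day 45 (range 6757 to 47012) and 8653 CPM in healthy cows at day 45 (range 6178 to 17871). Their day-25 medians were 14175 CPM in SCE cows (range 9277 to 33354) and 12616 CPM in healthy cows (range 6238 to 23968). The liver pair (miR-122 and miR-192) lay lower in SCE cows by its medians, at 48476 CPM in SCE and 69846 CPM in healthy cows at day 45 (ranges 18356 to 174109 and 33760 to 128094). At day 25 it had 43987 CPM in SCE and 73980 CPM in healthy cows (ranges 13504 to 145561 and 12069 to 138756). Nearly all of these sums was miR-192. By CPM over the whole total, miR-122 alone had medians of 8.73 in SCE and 6.27 in healthy cows at day 45. Its day-25 medians were 5.67 in SCE and 5.27 in healthy cows, so miR-122 was not lower in SCE cows by its medians. The myeloid and platelet lists both hold miR-223, so their sums are not separate. By CPM over the whole total, miR-223 alone had a day-45 median of 1923 in SCE and 442 in healthy cows. The platelet sums on that scale had medians of 2392 and 884, and the myeloid sums had 25707 and 12875. By these medians miR-223 was a small part of the myeloid sums and a larger part of the platelet sums. The groups overlapped for each list at each day, and the part of these markers in the levels of the 6 was not tested.

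The 6 varied together to different degrees. Over the 15 pairs among them, Spearman's rho on the scale without miR-486 had a median of 0.63 in SCE libraries (range 0.43 to 0.86) and 0.49 in healthy libraries (range 0.023 to 0.85). Among the 406 tested miRNAs, compared on TMM log2 CPM over all 33 libraries, bta-miR-345-5p was most like bta-miR-374b (rho 0.89), and bta-miR-188 most like bta-miR-497 (rho 0.85). bta-miR-505 was most like bta-miR-138 (rho 0.78), the only member among the closest names of another. bta-miR-138 was most like bta-miR-193a-3p (rho 0.85), bta-miR-339a most like bta-miR-11998 (rho 0.80) and bta-miR-628 most like bta-miR-181c (rho 0.89). bta-miR-30b-5p was among the 3 closest names of bta-miR-345-5p, bta-miR-505 and bta-miR-138. All these libraries share status and depth differences, so the correlations are descriptions.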

How the data were processed

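Each deposited file holds the whole-number read counts of a library by mature miRNA name, which the authors did not normalize as far as the values show. Per the submitters' processing notes, bcl2fastq 2.17.1.14, build UMD 3.1 and DESeq2 were used. No source used here names the aligner or the counter. Per the labels' protocols, libraries had 13 or 16 PCR cycles without stated molecular identifiers.

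CPM used library totals, with or without bta-miR-486. Comparisons were fitted over all miRNAs with edgeR 4.0.16 (R 4.3.3; TMM, filterByExpr, quasi-likelihood F test, Benjamini-Hochberg, adjusted p under 0.05, two-sided). The steps were tested on simulated data. DESeq2 1.42.0, other scalings and filters and leaving out each cow were alternatives. By label each cow gave both days, so cow numbers pair libraries, except for healthy cow 3, whose day-25 file was left out. Within-cow deviations correlated at a median r of 0.25 over 16 cows, above 0.1 in 11. Named miRNAs are the 6, their relatives, and the 3 most alike at rho 0.7 or above. The members and lists were chosen with earlier results of these data known. Gene positions came from RefSeq by symbol, matching 6 of 6, and are of another assembly than the counts.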

Additional observations from a re-analysis of the deposited data

Results flagged for a closer look

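In healthy cows 7 values stood apart from the rest of their group by Dixon's criterion, out of 30 groups of values examined. Chance flags about 1 in 20 groups where the groups are separate and their values follow a normal distribution. These groups reuse the same libraries, so no excess over chance is read from the 7. Groups of 11 SCE cows were too large for the criterion.

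At day 45 healthy cow 6 stood above the other 5 healthy cows in 4 of the 6 miRNAs on the CPM scale. It had 24.8 CPM of bta-miR-345-5p, against at most 4.52 CPM in the others, and 18.1 CPM of bta-miR-628, against at most 3.75 CPM. It had 33.2 CPM of bta-miR-505, against at most 12.7 CPM, and 380.4 CPM of bta-miR-339a, against at most 148.0 CPM. None of these met the criterion on the scale without miR-486, but healthy cow 6 was still the highest healthy day-45 library in all 4. On that scale it had 29.0 CPM of bta-miR-345-5p, against at most 10.9 CPM in the others. This library had the lowest miR-486 share of the healthy day-45 libraries, 14.7%, and the part of that share was not tested.

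At day 25 healthy cow 5 stood above the other 4 on the scale without miR-486, with 16.997 CPM of bta-miR-345-5p against at most 6.33 CPM, and 79.3 CPM of bta-miR-138 against at most 27.3 CPM. At day 45 the share of bta-miR-188 in the counts of bta-miR-188 and bta-miR-532 was 0% in healthy cow 2, against 2.1697% to 3.21% in the other 5.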

How the results depend on the processing

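The 6 miRNAs were chosen for being higher in SCE cows in these same libraries, so their directions over the fits are a description. They were higher in SCE cows in every planned fit that held them, at both days and summed. The exception among added fits was bta-miR-188 at day 45 with SCE cows 7 and 8 only, at -0.29. Limits are this selection, the 5 or 6 healthy cows, counts under 10 of bta-miR-188 and bta-miR-628 in several libraries, and header form. Counts of bta-miR-345-5p were also under 10 in healthy cows 2 and 3 at day 45.

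Counts of called miRNAs depended on the setting, and the cause was not tested. At day 45, 0 were called, against 1 with the library total alone and 1 with DESeq2. At day 25, 1 was called, against 4 with DESeq2 size factors, 8 with the total without miR-486, 48 with the library total alone, 7 with the total without the 10 most abundant, 14 with DESeq2, 6 without a filter and 0 to 7 when leaving out each cow. On summed counts, 1 was called, against 22 with the total without miR-486, 64 with the library total alone, 15 with DESeq2, 2 without a filter, 2 with the stricter filter (mean CPM of 10) and 0 to 10 when leaving out each cow. Leaving out SCE cow 7 gave 7 at day 25 and 10 summed. 2 settings were chosen after seeing the data. SCE cows 7 and 8 alone gave 0 at day 25 and 0 summed, and leaving out SCE cows 7 (rich in miR-486) and 10 (shallow) gave 0 at day 45, 8 at day 25 and 12 summed. The difference of day effects had 1 call without a filter. The stricter filter removed some members.

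With the cow as a replicate block no miRNA was called between days in either status or for the difference of day effects. Directions of uncalled day values turned as follows. In healthy cows bta-miR-345-5p was -0.063 with the block and between -0.45 and 0.73 leaving out a cow, bta-miR-628 -0.15 and between -0.52 and 0.71, and bta-miR-138 between -0.65 and 0.097. bta-miR-339a was -0.082 with DESeq2 size factors, -0.092 with DESeq2, -0.14 with the stricter filter, -0.11 with the block and between -0.41 and 0.40 leaving out a cow. For the difference of day effects bta-miR-505 was -0.40 with the library total alone, -0.55 with the block and between -0.16 and 0.44 leaving out a cow, bta-miR-138 -0.37 and between -0.61 and 0.36, and bta-miR-339a between -0.56 and 0.13.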
